A study of Mus musculus with 10 samples.

Results

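The genes that separate the B cells of the splenic marginal zone from those of the follicle, 7 in number, were followed in whole spleens of mice immunized with cartilage proteoglycan (PG). Cr2, Cd9, Cd1d1, S1pr3, Dtx1 and Notch2 mark marginal zone B cells and Fcer2a marks follicular B cells. They are 7 of the 18193 genes that have a probe set of their own on the Affymetrix array. Their probe sets were found by symbol in the platform's annotation, whatever their values. The 7 genes and the gene lists used below were themselves chosen with earlier results of these data known. The spleens came from 10 female BALB/c mice, all given PG in DDA adjuvant by intraperitoneal injection, as in PG-induced arthritis (PGIA), a murine model of rheumatoid arthritis. By their labels there were 2 old arthritic mice (both 9 months), 2 old non-arthritic mice (7 and 5 months), 2 young arthritic mice (5 and 4 months) and 4 young non-arthritic mice (3, 3, 2 and 1 months), with 1 array per mouse. It is unknown here if these months were counted at the start of immunization or when the spleen was taken. The paper counts age at the initial PG injection, with the spleens taken later, but it does not describe the arrays. No group of non-immunized mice was analysed here, so every comparison is among PG-immunized animals. In both age groups the arthritic mice were labelled older than the non-arthritic ones, and 1 old non-arthritic and 1 young arthritic mouse shared the labelled age of 5 months. Age below always means this labelled age.

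Marginal zone B cells sit at the border between the white and red pulp of the spleen, where blood-borne antigen arrives, and respond fast with IgM. They arise under signals through Notch2, whose ligand Dll1 is displayed by stromal cells. Follicular B cells recirculate, enter germinal centers with T cell help, and carry the low-affinity IgE receptor CD23, the product of Fcer2a, which is low on marginal zone B cells. In RNA of whole spleen none of the 7 genes belongs to 1 cell type alone: follicular dendritic cells carry Cr2 and can carry CD23, platelets and plasma cells carry Cd9, endothelium carries S1pr3, and Notch2 is found in many cells. Fewer cells of a type and less RNA per cell cannot be told apart in such samples.

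The 7 genes were measured by 13 probe sets, and 11 of these 13 lay above the median signal of the array in at least 2 arrays. The 11 covered every one of the 7 genes. All values are log2 signals after RMA, so a difference of 1 is a doubling, and the signals of different probe sets are not set against each other. B cell RNA in the arrays was followed with 15 pan B cell genes. Their mean deviation from the average of the 10 arrays lay between -0.17 (young non-arthritic mouse 3) and 0.11 (young non-arthritic mouse 2). These genes do not show which cells gave the signals of the 7 genes. Of these 15 genes, 0 passed the test in any comparison, and 0 had an unadjusted p under 0.05 in limma. At equal age, 68.5% of all probe sets were higher in arthritic mice, and so were 9 of the 15, with a median of 0.00, but 1 of the 15 after the arrays were quantile normalized again (median -0.12). Old arthritic mouse 2 stood apart from the other mice over all probe sets, with a score of 52.55 on the first principal component against -23.64 to 19.57 for the others.

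Short stretches of 3 promoters show the regulatory context of these genes, since Notch signals act through the DNA-binding factor RBPJ and CD23 is induced by interleukin 4 through STAT6. Windows from 250 bases before to 50 bases after the gene start were taken from RefSeq (GRCm38.p6) for 6 of the 7 genes, with none for Cd1d1. Both strands were searched for GTGGGAA, a core that RBPJ can bind, and for TTC and GAA with any 4 bases between them, a spacing that STAT6 can bind. The capitals mark the match.
Cr2 (chr1:195176904-195176969, minus strand, match beginning 221 bases before the start): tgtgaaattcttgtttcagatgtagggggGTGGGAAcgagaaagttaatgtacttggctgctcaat
Cd9 (chr6:125494936-125495002, minus strand, match beginning 212 bases before the start): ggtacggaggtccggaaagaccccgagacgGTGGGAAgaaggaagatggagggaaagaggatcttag
Fcer2a (chr8:3690990-3691059, minus strand, match beginning 168 bases before the start): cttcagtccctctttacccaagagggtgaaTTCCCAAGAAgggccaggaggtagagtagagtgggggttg
Of all 32851 promoter windows of this length, 6.38% held GTGGGAA and 6.95% held the spaced motif. Fcer2a has 3 windows, of which 1 held the second motif and 0 the first, and no match to either motif was found in the windows of S1pr3, Dtx1 and Notch2. A match is a description of the letters only, and the arrays did not measure binding.

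Cd9 was the 1 probe set of the 11 that passed the test, and it did so in the comparison of arthritic with non-arthritic mice at equal age. Cd9 encodes a tetraspanin, a membrane protein that organizes integrins and receptors at the surface of marginal zone B cells, plasma cells and platelets. Its signal (1416066_at) was 12.04 and 12.04 in the 2 old arthritic mice, against 11.61 and 11.78 in the 2 old non-arthritic mice. In young mice it was 12.27 and 12.63 with arthritis, against 12.13, 12.08, 12.19 and 11.93 without. Within each age group every arthritic mouse lay above every non-arthritic mouse, while the old arthritic mice lay inside the range of the young non-arthritic ones. Of all probe sets, 51.5% did not overlap between the old groups and 31.9% between the young groups, in either direction.

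In a limma fit with arthritis status and age in months, Cd9 was higher by 0.58 on the log2 scale in arthritic mice at equal age (SE 0.11, 95% interval 0.34 to 0.83, adjusted p = 0.0338), a 1.5-fold level. Equal age here assumes a straight line with age, since arthritic and non-arthritic mice shared only the labelled age of 5 months. The estimate lay above the differences within the age groups given below. Over all 23805 probe sets, 2.26% passed in that comparison, and 22.9% had an unadjusted p under 0.05, which 2 of the 11 members' probe sets had. Within the old groups the difference was 0.35 (SE 0.14, adjusted p = 0.225), and within the young groups it was 0.37 (SE 0.12, adjusted p = 0.177). Neither passed, and the old effect minus the young one was -0.02 (95% interval -0.43 to 0.38, adjusted p = 1.00). The call at equal age was lost when either old non-arthritic mouse or either young arthritic mouse was left out, with adjusted p between 0.0822 and 0.237, while the difference itself stayed between 0.47 and 0.66. It was also lost when the arrays were quantile normalized again (difference 0.42, adjusted p = 0.0841).

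Ordered by mean signal, Cd9 stood at 12.45 ± 0.26 in young arthritic mice (SD, n = 2), 12.08 ± 0.11 in young non-arthritic mice (n = 4), 12.04 ± 0.0016 in old arthritic mice (n = 2) and 11.69 ± 0.12 in old non-arthritic mice (n = 2). Young non-arthritic and old arthritic mice, neighbours in this order, overlapped. Old non-arthritic mice were lower than young non-arthritic mice by 0.39 (SE 0.12) without overlap, with an unadjusted p of 0.00898 and an adjusted p of 0.997 in limma. Between these groups 12.0% of all probe sets did not overlap. The 2 mice of the same labelled age of 5 months had 12.27 (young arthritic) and 11.78 (old non-arthritic). The slope per month at equal arthritis status was -0.09 (SE 0.02, adjusted p = 0.466).

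**Figure D1:**
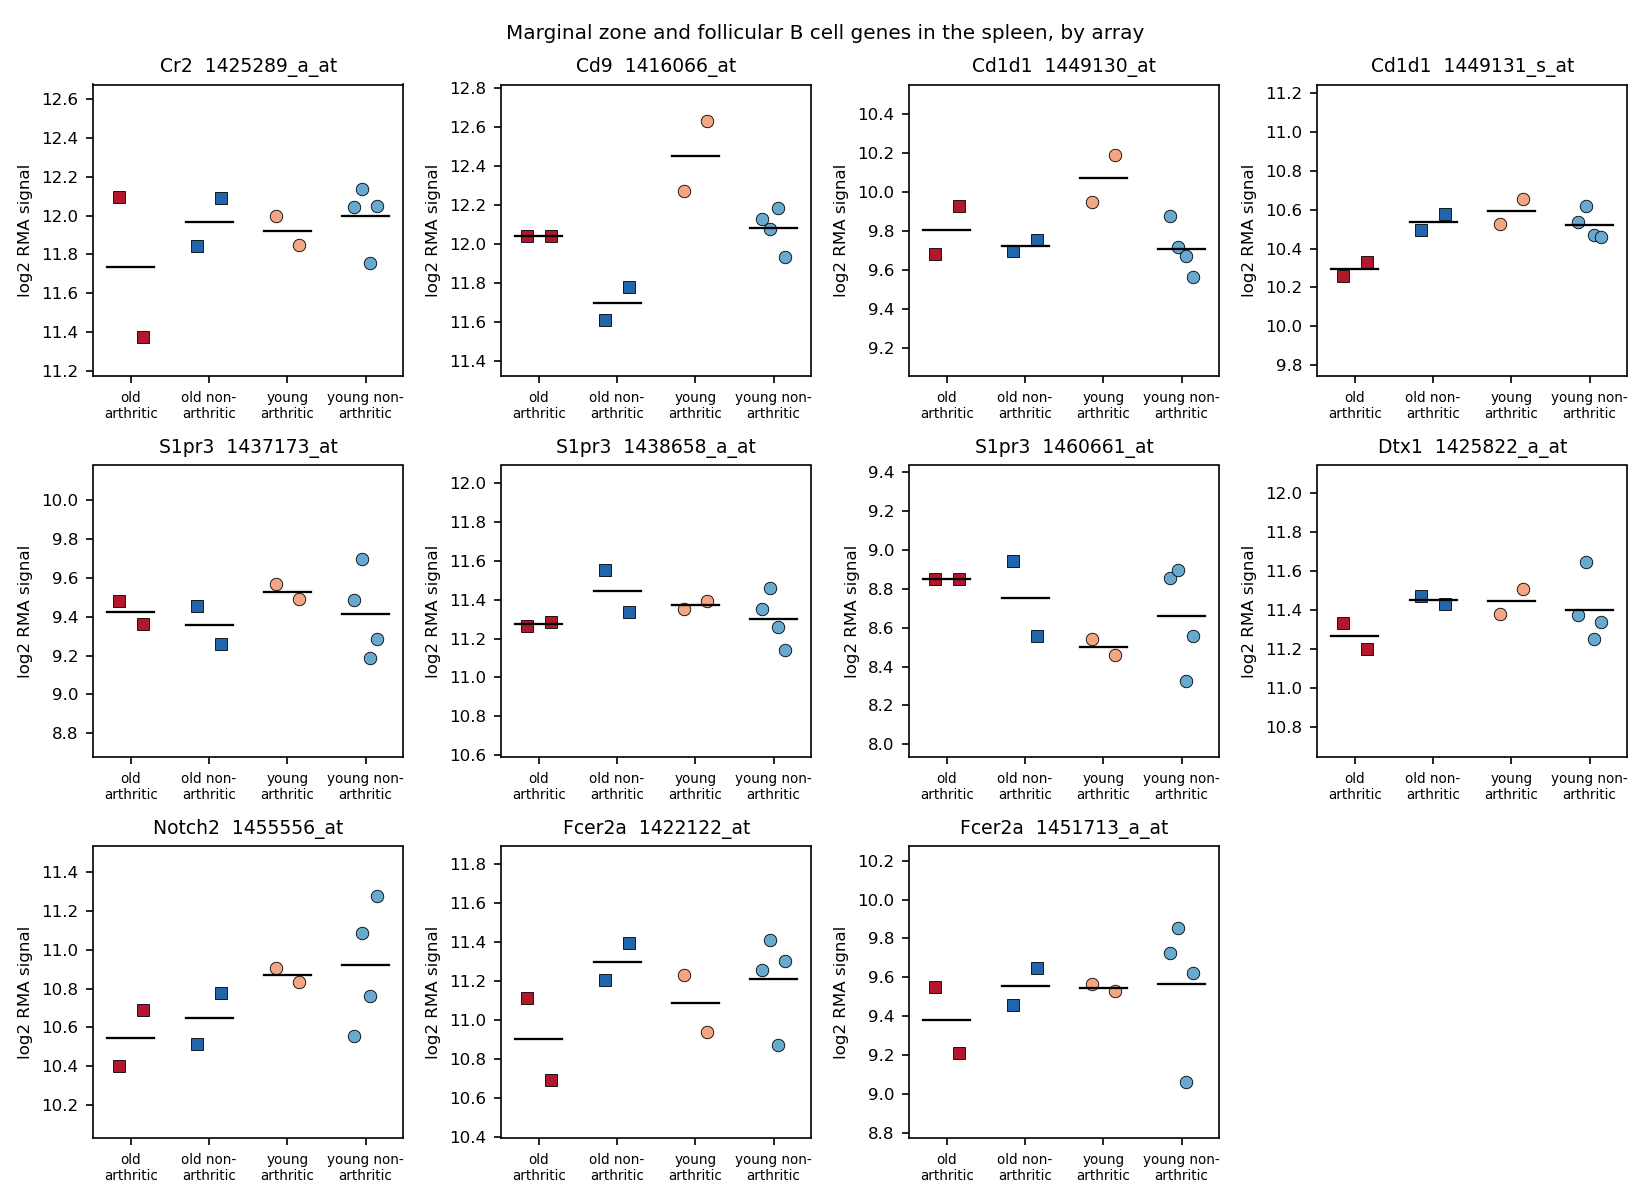
Log2 RMA signal of the 11 probe sets above the median filter (y axis, a span of 1.5 in every panel) in the 4 groups (x axis), with 1 point per mouse and a bar at the group mean. Cd9 separates arthritic from non-arthritic mice within each age group, as do 51.5% of all probe sets in old and 31.9% in young mice. The low point of Cr2 and of Fcer2a 1422122_at is old arthritic mouse 2.

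Genes of platelets and megakaryocytes had values that ran beside those of Cd9. All 9 of the 9 measured genes of that list were higher in arthritic mice at equal age, with a median of 0.67 against 0.09 over all probe sets. Gp5, a subunit of the platelet receptor for von Willebrand factor, was the 1 of them that passed (0.88, SE 0.18, adjusted p = 0.0392). That call was lost without either old non-arthritic mouse, either young arthritic mouse or young non-arthritic mouse 2 (adjusted p = 0.0555 to 0.252), and after another quantile normalization (0.0816). The mean deviation of the list was 0.05 and -0.11 in old arthritic mice against -0.41 and -0.39 in old non-arthritic mice, and 0.33 and 0.65 in young arthritic mice against -0.01, -0.12, 0.31 and -0.30 in young non-arthritic mice. The highest Cd9 signal and the highest platelet level were in the same mouse (young arthritic mouse 2), and the lowest of both were in the same mouse (old non-arthritic mouse 1). The neutrophil list also had 8 of 9 genes higher at equal age, with a median of 0.76 and 0 called (7 at unadjusted p under 0.05 in limma). Its mean deviation was likewise highest in young arthritic mouse 2 (0.61) and lowest in old non-arthritic mouse 1 (-0.71), so these matching extremes were not particular to platelet genes. The part of either cell type in the Cd9 result was not tested.

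**Figure D2:**
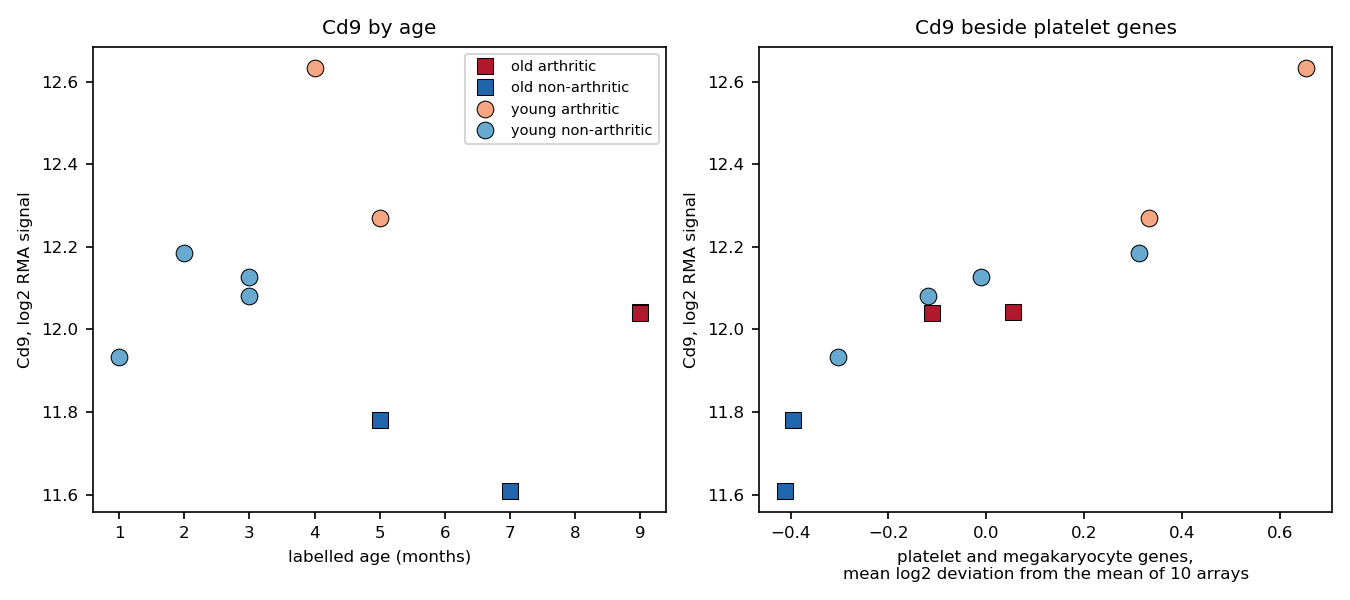
Cd9 log2 RMA signal (y axes) against the labelled age in months (left) and against the mean log2 deviation of 9 platelet and megakaryocyte genes (right), with 1 point per mouse, squares for old and circles for young mice and red tones for arthritis. At 5 months the young arthritic mouse stands at 12.27 and the old non-arthritic mouse at 11.78, and the 2 old arthritic points at 9 months coincide.

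The other tetraspanins of leukocytes did not pass. Of 7 measured genes, 6 were higher at equal age, with a median of 0.09 and 0 called (1 at unadjusted p under 0.05), but 2 after another quantile normalization (median -0.06). Cd53, a tetraspanin of most leukocytes, differed by 0.22 (SE 0.09, adjusted p = 0.2), and Tspan32 by 0.18 (SE 0.11, adjusted p = 0.346). Card19, Ica1 and Cpne3 had the patterns most like that of Cd9 among 11863 genes, with Pearson's r of 0.98, 0.97 and 0.97 and Spearman's rho of 0.94, 0.92 and 0.89 over the 10 arrays. These were picked as the highest of all genes and are a description, on points that share the age and arthritis groups.

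The signals of Cr2 and Fcer2a varied together. Which cells gave either signal was not tested, so they cannot be read as separate compartments moving together. Cr2 encodes the complement receptors CD21 and CD35, which carry complement-coated antigen into the B cell coreceptor. Its signal (1425289_a_at) was 12.10 and 11.37 in old arthritic mice against 11.84 and 12.09 in old non-arthritic mice. In young mice it was 12.00 and 11.85 with arthritis against 12.04, 12.14, 11.76 and 12.05 without. The groups overlapped at both ages, and the lowest value belonged to old arthritic mouse 2.

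Fcer2a was read by 2 probe sets. The first (1422122_at) gave 11.11 and 10.69 in old arthritic mice against 11.20 and 11.40 in old non-arthritic mice, and 11.23 and 10.94 in young arthritic mice against 11.26, 11.41, 10.87 and 11.30 in young non-arthritic mice. The old groups did not overlap, as was true of 51.5% of all probe sets, and the young groups did. The second (1451713_a_at) gave 9.55 and 9.21 in old arthritic mice against 9.46 and 9.65 in old non-arthritic mice, and 9.56 and 9.53 in young arthritic mice against 9.73, 9.86, 9.06 and 9.62 in young non-arthritic mice. Its groups overlapped at both ages, and its lowest value was in young non-arthritic mouse 3. The 2 probe sets correlated with r = 0.85 over the 10 arrays, and Cr2 correlated with them at r = 0.89 and r = 0.80 (0.81 and 0.84 without old arthritic mouse 2), given here as a description.

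Neither gene passed in any comparison. In old mice the arthritic group differed by -0.40 for Fcer2a 1422122_at (SE 0.20, 95% interval -0.85 to 0.06, adjusted p = 0.318) and by -0.23 for Cr2 (SE 0.22, 95% interval -0.73 to 0.26, adjusted p = 0.58). Without old arthritic mouse 2 these became -0.19 for Fcer2a and 0.13 for Cr2, and without old arthritic mouse 1 they became -0.61 and -0.59 (adjusted p = 0.128 and 0.0799), so that 1 mouse decided the size of the first and the sign of the second. At equal age the differences were -0.23 for Fcer2a 1422122_at (SE 0.16) and -0.08 for Cr2 (SE 0.17), and old minus young non-arthritic mice differed by 0.09 (SE 0.17) and -0.03 (SE 0.19).

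The low Cr2 and Fcer2a 1422122_at signals of old arthritic mouse 2 stood beside a pan B cell mean of -0.01. Relative to the mean of the 15 pan B cell genes, Cr2 deviated by -0.54 in that mouse and by -0.04 to 0.16 in the other 9 mice. Fcer2a 1422122_at deviated by -0.44 there and by -0.17 to 0.20 elsewhere. Fcer2a 1451713_a_at deviated by -0.30 there, beside -0.29 in young non-arthritic mouse 3 and -0.03 to 0.23 in the others, so this probe set did not set the mouse apart. The 7 other genes of follicular B cells had a mean deviation of -0.38 in that mouse and of -0.09 to 0.19 in the others, and 7 plasma cell genes had 0.74 there and -0.22 to 0.17 elsewhere. Follicular dendritic cell and follicle stroma genes had a mean deviation of -0.06 in that mouse. Within this list Coch was at 12.84 there, below its 12.99 to 13.41 in the other mice. The other genes of the list lay within the range of the other mice. The part of plasma cells or of the mouse's RNA in these values was not tested.

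**Figure D3:**
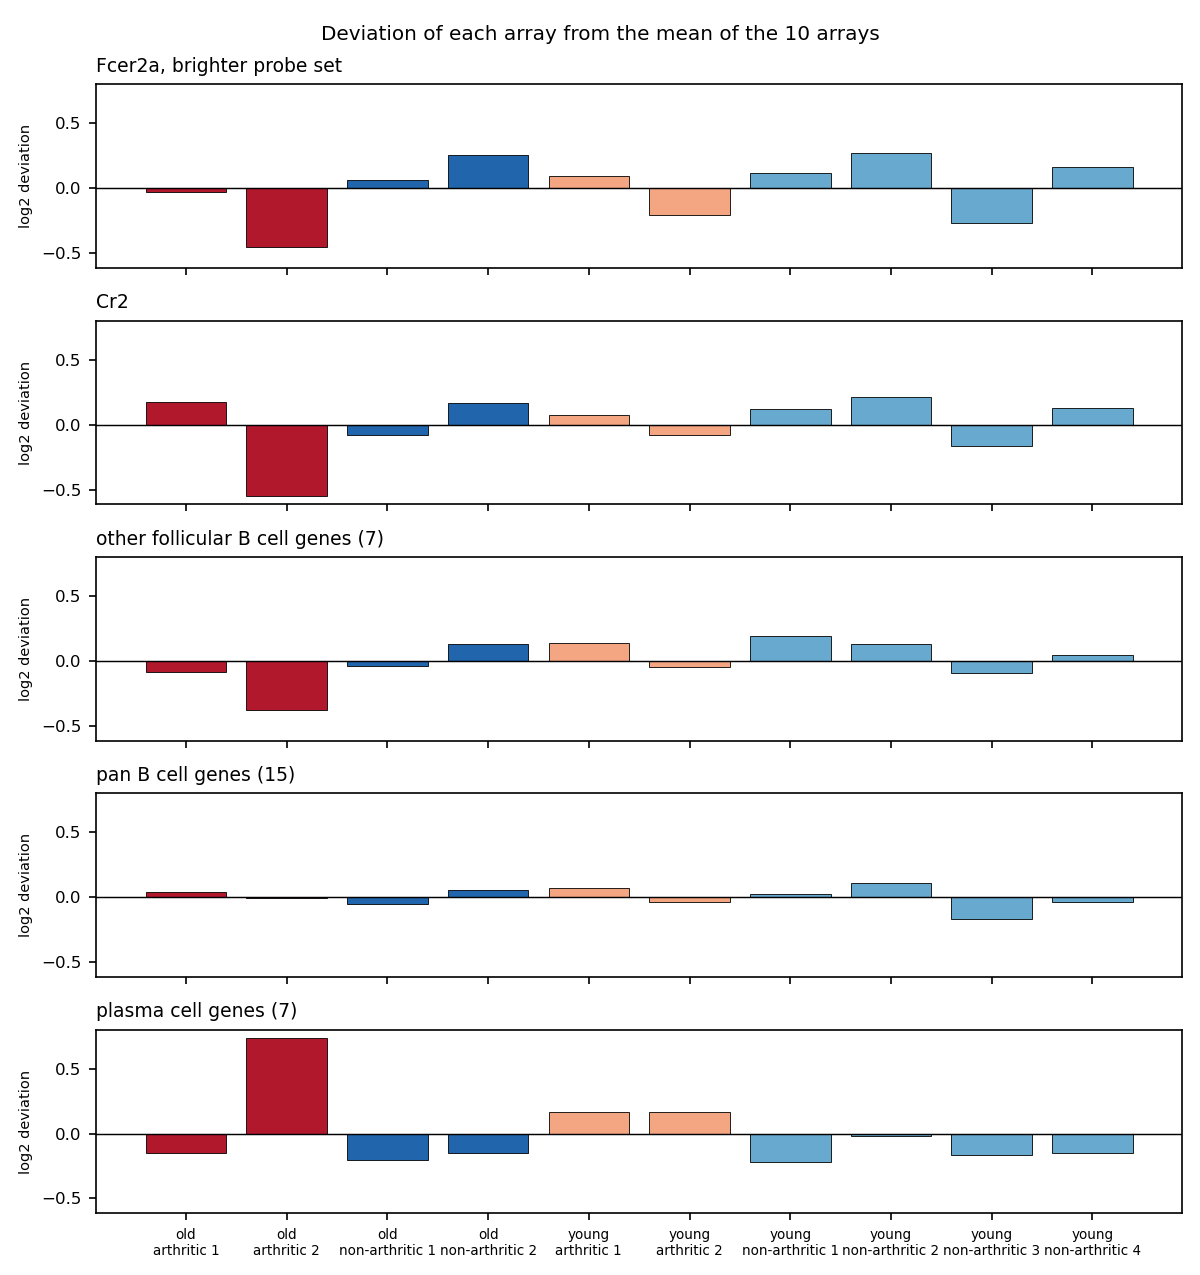
Log2 deviation from the mean of the 10 arrays (y axes) for Fcer2a, Cr2 and the mean of 3 gene lists (number of genes in brackets), with 1 bar per mouse (x axis) coloured by group. Old arthritic mouse 2 is lowest for Fcer2a (-0.45), Cr2 and the other follicular genes (-0.38), highest for the plasma cell genes (0.74) and at -0.01 for the pan B cell genes.

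The other follicular B cell genes gave a like picture in old mice. All 7 of the 7 measured genes were lower in old arthritic mice, with a median of -0.28 against 0.05 over all probe sets, but 0 passed the test and 2 had an unadjusted p under 0.05 in limma. Without old arthritic mouse 2, 6 of the 7 were lower and the median was -0.07, and without old arthritic mouse 1 all 7 were lower and the median was -0.45. Satb1, a chromatin organizer, differed by -0.50 (SE 0.15, adjusted p = 0.141) and Ccr7, the chemokine receptor that draws lymphocytes to T cell zones, by -0.41 (SE 0.13, adjusted p = 0.165). Satb1 was -0.66 without old arthritic mouse 1 (adjusted p = 0.0464) and -0.33 without old arthritic mouse 2. T cells also express Satb1 and Ccr7, and all 8 of the 8 measured T cell genes were lower in old arthritic mice (6 of them without old arthritic mouse 1), with a median of -0.19, 0 called and 0 at unadjusted p under 0.05. The part of T cells in the follicular list was not tested. In young mice 4 of the 7 follicular genes were higher and 3 lower in arthritic mice (median 0.01), and the 7 differences between the old and young effects, all below 0, gave 0 calls (1 at unadjusted p under 0.05).

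Over the 10 arrays, the genes with patterns most like Fcer2a 1422122_at were Map3k14 (r = 0.94, rho = 0.92), Klf2 (r = 0.92, rho = 0.93) and Il4ra (r = 0.92, rho = 0.92). For Cr2 they were Klf2 (r = 0.95, rho = 0.77), Sema3a (r = 0.93, rho = 0.84) and Aak1 (r = 0.92, rho = 0.72). Without old arthritic mouse 2 these r were 0.91, 0.87 and 0.89 for Fcer2a and 0.85, 0.76 and 0.71 for Cr2. Klf2, a zinc finger factor, stood in both lists, and it was also on the list of other follicular genes.

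A list of 5 genes was read beside Fcer2a, with regulators of CD23 (Il4ra, Stat6 and the sheddase Adam10) and chains of the high-affinity IgE receptor (Fcer1a and Fcer1g). Fcer1a, the alpha chain of the high-affinity IgE receptor of mast cells and basophils, was the 1 that passed at equal age, higher by 0.91 in arthritic mice (SE 0.15, adjusted p = 0.0237). It was 6.83 and 7.56 in old arthritic mice against 6.52 and 6.91 in old non-arthritic mice, and 7.70 and 7.96 in young arthritic mice against 7.19, 7.10, 7.35 and 7.32 in young non-arthritic mice. The old groups overlapped and the young groups did not, as was true of 31.9% of all probe sets in young mice. In old arthritic mouse 1 and both old non-arthritic mice the Fcer1a signal lay below the array median (6.96, 6.95 and 6.95). Of the 5 genes, 4 were higher in arthritic mice at equal age (median 0.14), but 2 after another quantile normalization (median -0.02), and the exception in the deposited values was Il4ra at -0.09 (SE 0.11, adjusted p = 0.669). The Fcer1a call was lost without either old non-arthritic or either young arthritic mouse (adjusted p = 0.169, 0.073, 0.0827 and 0.182).

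Notch2, the receptor that directs B cells to the marginal zone, tended neither way with arthritis. Its signal (1455556_at) was 10.40 and 10.69 in old arthritic mice against 10.52 and 10.78 in old non-arthritic mice, and 10.91 and 10.83 in young arthritic mice against 10.56, 11.09, 10.76 and 11.27 in young non-arthritic mice. All these groups overlapped, and the highest signal was in the mouse with the lowest labelled age. The differences were -0.10 in old mice (SE 0.22), -0.05 in young mice (SE 0.19) and 0.14 at equal age (SE 0.15), with adjusted p = 0.82, 0.901 and 0.597. In old mice the difference was -0.25 without old arthritic mouse 2 and 0.04 without old arthritic mouse 1. The slope with age was -0.08 per month at equal arthritis status (SE 0.03, unadjusted p = 0.0152, adjusted p = 0.467 in limma). A second Notch2 probe set (1451889_at) stayed below the filter, at 5.76 to 6.11.

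Dtx1, the Deltex 1 ubiquitin ligase that is transcribed in response to Notch, did not pass either. Its signal (1425822_a_at) was 11.34 and 11.20 in old arthritic mice against 11.47 and 11.43 in old non-arthritic mice, and 11.38 and 11.51 in young arthritic mice against 11.37, 11.64, 11.25 and 11.34 in young non-arthritic mice. The old groups did not overlap, as was true of 51.5% of all probe sets. Their difference was -0.18 (SE 0.13, adjusted p = 0.461), or -0.11 without old arthritic mouse 2. The young groups overlapped, with a difference of 0.04 (SE 0.11, adjusted p = 0.855). At equal age the difference was -0.04 (95% interval -0.29 to 0.21). A second Dtx1 probe set (1458643_at) stayed below the filter, at 5.65 to 5.95.

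Of 31 other measured genes of the Notch pathway (ligands, receptors, processing enzymes, cofactors and targets), 23 were higher and 8 lower in arthritic mice at equal age, with a median of 0.10 against 0.09 over all probe sets, but 13 were higher after another quantile normalization (median -0.01). Among them 1 passed, Ncstn (0.46, SE 0.09, adjusted p = 0.0337), which encodes nicastrin, a subunit of the gamma-secretase that releases the active part of Notch receptors and cleaves other membrane proteins. Ncstn was 10.11 and 10.31 in old arthritic mice against 9.62 and 9.70 in old non-arthritic mice, and 10.15 and 10.14 in young arthritic mice against 9.71, 9.86, 9.82 and 9.74 in young non-arthritic mice. The 4 arthritic mice lay above the 6 non-arthritic mice, and the share of all probe sets that separated likewise was not computed. The call was lost without either old non-arthritic or either young arthritic mouse (adjusted p = 0.218, 0.105, 0.101 and 0.179) and after another quantile normalization (0.119) or centring on the array median (0.051).

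Cd1d1 encodes the CD1d molecule that presents lipids to natural killer T cells, and its 2 probe sets disagreed. The first (1449130_at) gave 9.68 and 9.93 in old arthritic mice against 9.70 and 9.76 in old non-arthritic mice, and 9.95 and 10.19 in young arthritic mice against 9.88, 9.72, 9.67 and 9.57 in young non-arthritic mice. Both young arthritic mice lay above all young non-arthritic ones, as was true, in either direction, of 31.9% of all probe sets, and the difference was 0.36 (SE 0.12, unadjusted p = 0.012, adjusted p = 0.181 in limma). The second (1449131_s_at) gave 10.26 and 10.33 in old arthritic mice against 10.49 and 10.58 in old non-arthritic mice, and 10.53 and 10.65 in young arthritic mice against 10.54, 10.62, 10.47 and 10.46 in young non-arthritic mice. Here the old groups did not overlap, as was true of 51.5% of all probe sets. The arthritic one was lower, with a difference of -0.24 (SE 0.09, unadjusted p = 0.0323, adjusted p = 0.23 in limma).

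At equal age the 2 Cd1d1 probe sets differed by 0.30 (SE 0.12, adjusted p = 0.176) and 0.01 (SE 0.09, adjusted p = 0.968) between arthritic and non-arthritic mice, and they correlated with r = 0.38 over the 10 arrays. With array weights the first passed (0.29, adjusted p = 0.043). The suffix of the second probe set marks probes that can bind transcripts of related genes, and Cd1d2, the close copy of Cd1d1, has a probe set of its own, so the values of Cd1d1 are uncertain. Cd1d2 differed by 0.21 at equal age (SE 0.09, adjusted p = 0.179). Its signals, like those of Zbtb16 below, lay near the array medians. Zbtb16, which encodes the factor PLZF of natural killer T cells, was 6.78 and 7.07 in old arthritic mice against 7.41 and 7.26 in old non-arthritic mice, and 7.06 and 6.93 in young arthritic mice against 7.37, 7.35, 7.48 and 7.42 in young non-arthritic mice. All 4 arthritic mice lay below the 6 non-arthritic ones, with a difference of -0.38 at equal age (SE 0.09, adjusted p = 0.057). The share of all probe sets with such a separation was not computed. The 4 measured genes of this list split 2 and 2 in direction at equal age, with 0 called and 2 at unadjusted p under 0.05 in limma.

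S1pr3 encodes a receptor for sphingosine 1-phosphate, the blood lipid that holds marginal zone B cells at their site, and 3 probe sets measured it. The brightest (1438658_a_at) gave 11.26 and 11.29 in old arthritic mice against 11.55 and 11.34 in old non-arthritic mice, and 11.35 and 11.39 in young arthritic mice against 11.35, 11.46, 11.26 and 11.14 in young non-arthritic mice. Its old groups did not overlap (difference -0.17, SE 0.12, adjusted p = 0.46), as was true of 51.5% of all probe sets. Its young groups did (0.07, SE 0.10, adjusted p = 0.739). The other probe sets ranged from 9.19 to 9.70 (1437173_at) and from 8.33 to 8.94 (1460661_at), with overlap between arthritic and non-arthritic mice at both ages. At equal age the 3 differences were -0.09, 0.08 and -0.23, with standard errors of 0.10, 0.13 and 0.13, and the 3 correlated with each other at r = 0.46 to 0.58. The last (1460661_at) had a positive slope with age, 0.07 per month (SE 0.02, unadjusted p = 0.0204, adjusted p = 0.467 in limma).

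The other 8 measured genes of sphingosine 1-phosphate receptors and enzymes were all higher in arthritic mice at equal age, with a median of 0.25 against 0.09 over all probe sets, and 0 passed (3 at unadjusted p under 0.05 in limma). Sphk2, a kinase that makes the lipid, differed by 0.41 (SE 0.10, adjusted p = 0.0647), and Sgpl1, the lyase that degrades it, by 0.25 (SE 0.08, adjusted p = 0.0993). After another quantile normalization 6 of the 8 were higher, with a median of 0.13.

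Across the 11 probe sets, members were called in 1 of the 6 comparisons. In old arthritic against old non-arthritic mice 0 of 11 passed, against 0.0714% of all probe sets, and 2 had an unadjusted p under 0.05, against 18.6%. Of the 11, 5 did not overlap between these groups, against the 51.5% above, and 4 were higher and 7 lower, where 58.6% of all probe sets were higher, with a median of -0.17 (-0.05 without old arthritic mouse 2) against 0.05 over all probe sets. In young mice 0 of 11 passed against 0.311%, 2 had an unadjusted p under 0.05 against 18.2%, and 2 did not overlap against the 31.9% above. Of the 11, 6 were higher and 5 lower, where 69.3% of all probe sets were higher, with a median of 0.04 against 0.09. The share of members without overlap was thus near or below that of all probe sets at both ages.

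With age alone no member passed the test. In old against young non-arthritic mice 0 of 11 members passed, as did 0% of all probe sets, 1 had an unadjusted p under 0.05 (3.19% of all) and 1 did not overlap (12.0% of all), which was Cd9 in both cases. Old mice had the higher mean in 6 of the 11 (42.7% of all probe sets), with differences from -0.39 (Cd9) to 0.14 (S1pr3 1438658_a_at) and a median of 0.01. For the slope per month 0 of 11 passed against 0.00420% of all probe sets, while 3 (Cd9, Notch2 and S1pr3 1460661_at) had an unadjusted p under 0.05 against 9.98%. Of the 11 slopes 9 were negative and 2 positive, where 39.9% of all probe sets had a positive slope, and they ran from -0.09 (Cd9) to 0.07 (S1pr3 1460661_at) per month. For the effect of arthritis in old mice minus that in young mice 0 of 11 passed, as did 0% of all probe sets, and 1 had an unadjusted p under 0.05 against 3.10%. That 1 was Cd1d1 1449131_s_at, with -0.31 (SE 0.13, adjusted p = 1.00).

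**Figure D4:**
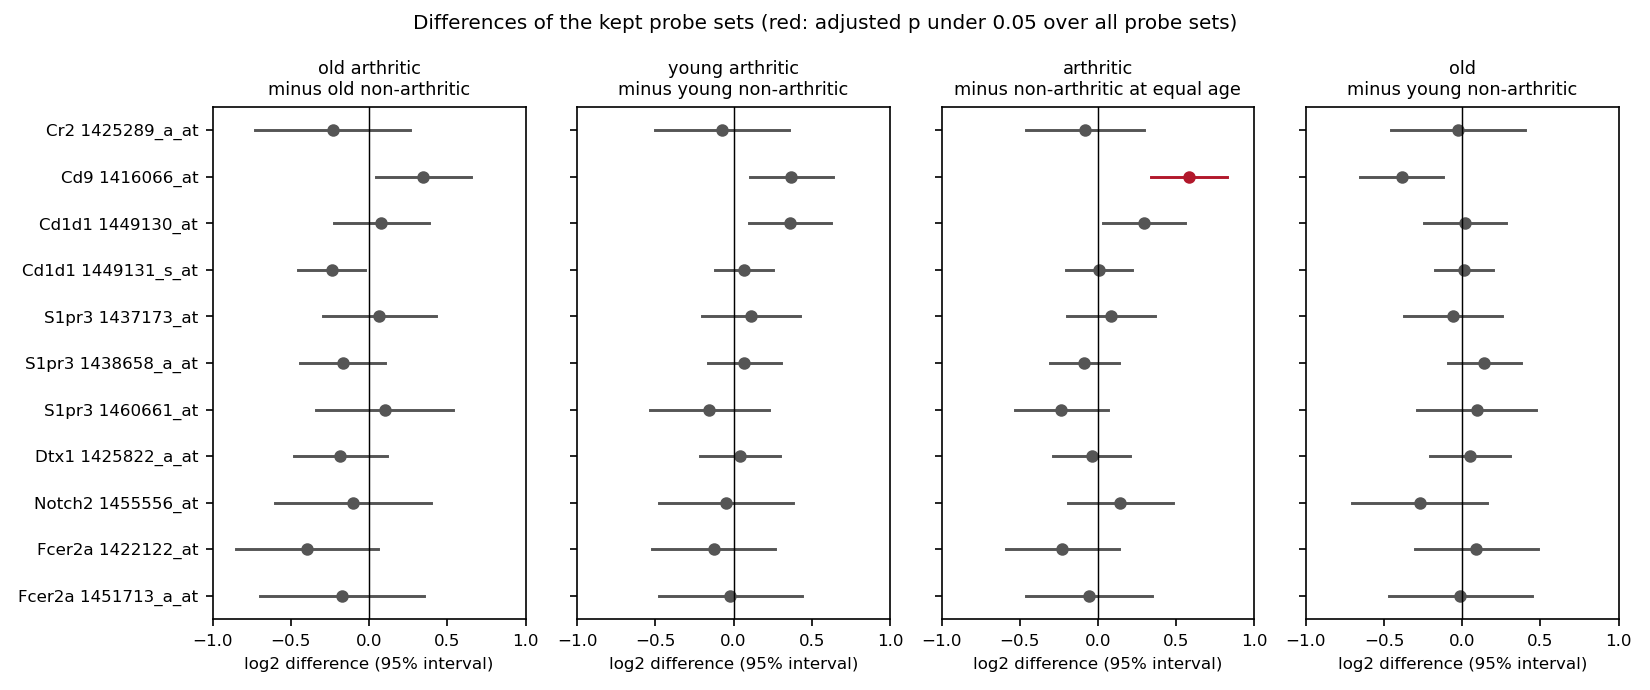
Log2 difference (points, x axes) with its 95% interval (lines) for the 11 probe sets (y axis) in 4 comparisons. Cd9 at equal age, drawn in red at 0.58, is the 1 value with an adjusted p under 0.05, and Fcer2a 1422122_at in old mice has an interval from -0.85 to 0.06.

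A balance of the marginal zone genes against Fcer2a followed from these values, and it does not measure the compartments themselves. The mean deviation of the 6 marginal zone genes minus that of Fcer2a 1422122_at was -0.07 and 0.27 in old arthritic mice against -0.15 and -0.26 in old non-arthritic mice, and -0.02 and 0.35 in young arthritic mice against -0.12, -0.10, 0.22 and -0.13 in young non-arthritic mice. The highest values were in young arthritic mouse 2, which had the highest Cd9, old arthritic mouse 2, which had the lowest Fcer2a, and young non-arthritic mouse 3. The old groups did not overlap and the young groups did. Of single probe sets 51.5% did not overlap between the old groups, and the share for such composites was not computed. The balance rests on this Fcer2a probe set alone, and the other (1451713_a_at) overlapped between the old groups. For Cd1d1 it used 1449131_s_at, the probe set that can bind transcripts of related genes. No test was made on this balance of chosen genes.

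Other genes of the same compartments did not pass either. Of 11 other marginal zone B cell genes, 9 were higher and 2 lower in arthritic mice at equal age (median 0.07, 0 called and 0 at unadjusted p under 0.05 in limma), and Mzb1, a chaperone of antibody secretion that plasma cells also express, differed by 0.33 (SE 0.16, adjusted p = 0.265) and the integrin chain Itgb1 by 0.10 (SE 0.06, adjusted p = 0.379). After another quantile normalization 4 of these 11 were higher (median -0.07). Of 6 genes of marginal zone macrophages and the marginal sinus, 5 were lower in old arthritic mice (median -0.18, 0 called), with -0.39 for the scavenger receptor Marco (SE 0.17, unadjusted p = 0.0477, adjusted p = 0.263 in limma) and -0.19 for Siglec1 (SE 0.12, adjusted p = 0.385). Without old arthritic mouse 2 the median was -0.12, Marco -0.20 and Siglec1 -0.13, and without old arthritic mouse 1 Marco was -0.59. Of 5 genes of the B cell coreceptor, 3 were higher and 2 lower at equal age (2 and 3 after another quantile normalization), with 0.17 for Ifitm1 (SE 0.08, adjusted p = 0.244) and -0.10 for Pik3cd (SE 0.09, adjusted p = 0.512).

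B cells at other stages were read beside these. Cd93, a surface marker of transitional B cells that myeloid and endothelial cells also carry, was higher by 0.52 in arthritic mice at equal age (SE 0.11, adjusted p = 0.0486), and the call was lost when any 1 mouse other than old arthritic mouse 1 or young non-arthritic mouse 4 was left out (adjusted p = 0.0547 to 0.221), after another quantile normalization (0.173), after centring on the array median (0.0521) and with the mean of the gene's probe sets (0.0596). All 4 measured germinal center genes were higher at equal age (median 0.33, 0 called and 2 at unadjusted p under 0.05), with 0.49 for S1pr2 (SE 0.16, adjusted p = 0.111). All 7 plasma cell genes were higher at equal age (6 of them without old arthritic mouse 2, with a median of 0.23), with a median of 0.27 (0 called and 2 at unadjusted p under 0.05), with 1.04 for Tnfrsf17, the receptor BCMA (SE 0.25, adjusted p = 0.0606). Of 5 B1 cell genes 3 were higher and 2 lower (median 0.16, 0 called).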

How the data were processed

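Spleen RNA of 10 mice was measured with 1 Affymetrix array each. The authors deposited 1 log2 signal for each probe set and array, computed with RMA per the labels. Its version and a genome build are not given in the sources used here. Of 45101 rows, 64 controls were left out. RMA scales arrays to each other, so a change shared by most genes is partly removed.

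Probe sets above the array median in at least 2 arrays were kept (23805). Limma 3.58.1 in R 4.3.3 gave 4 comparisons from 4 group means (6 residual degrees of freedom) and 2 from arthritis status plus age (7), with Benjamini-Hochberg adjustment over all kept probe sets and a threshold of 0.05. Replicates are separate mice. List genes are represented by the brightest kept probe set. Of 191 list genes 163 were kept. Members and lists were chosen with earlier results of these data known. Named are all members, list genes past the threshold, else the 2 with the smallest p in the comparison described, and the 3 genes most like Fcer2a, Cr2 and Cd9. The fit was tested on simulated data. Alternatives changed the filter, normalization, spread, weights, block and arrays. Figures were drawn with matplotlib 3.10.9.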

Additional observations from a re-analysis of the deposited data

Results flagged for a closer look

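Among the young non-arthritic mice, 2 of the 60 named probe sets examined had 1 mouse far from the other 3, and no member gene was among them. For Cd53 (1448617_at) the gap between young non-arthritic mouse 3 and the nearest mouse was 0.851 of the group's range, and for Cxcl13 (1417851_at), the chemokine of the follicle, it was 0.856, in both cases on the low side. Chance gives such a gap in about 1 of 20 groups of 4.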

How the results depend on the processing

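At equal age 1 member probe set passed, and 0 passed after another quantile normalization, 2 with array weights and 0 with the replicate block. Leaving out 1 mouse gave 0 to 1, with 0 without old non-arthritic mouse 1 or 2 or young arthritic mouse 1 or 2. In the other 5 comparisons 0 members passed under every alternative run. Same-numbered mice of different groups did not steadily deviate together (r from -0.525 to 0.356). In groups of 2 mice the deviations mirror each other, so these r are few and cannot decide whether the numbers pair mice. With the replicate block Cd9 had 0.59 (adjusted p = 0.0609), and Gp5, Fcer1a, Ncstn and Cd93 also missed the threshold (adjusted p = 0.0574, 0.0622, 0.0776 and 0.102). The share of all probe sets passing at equal age, 2.26% in the values above, was 12.2% without a filter, 0.744% after another quantile normalization, 1.15% after centring on the median, 20.4% with array weights and 0.122% with the block, and between 0% and 3.66% without 1 mouse. After another quantile normalization the median of all probe sets at equal age was 0.00 in place of 0.09, 3 in place of 5 of the 11 members were higher, and S1pr3 1437173_at and Cd1d1 1449131_s_at changed sign (-0.03 and -0.13). In the lists of other marginal zone, pan B cell, Notch pathway and tetraspanin genes the direction of the median at equal age turned likewise (-0.07, -0.12, -0.01 and -0.06). With 2 mice in 3 of the 4 groups, the number of arrays limits the precision.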
